A study of Mus musculus with 5 samples.

Results

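Levels of 6 genes of prostaglandin and leukotriene production and sensing, Ptgs2, Hpgds, Ptger2, Ptger4, Alox5 and Alox5ap, were measured in innate lymphoid cells (ILCs) of mouse intestine and kidney. The 6 genes, of 31253 in the count tables, were chosen by name with their levels in these same libraries already known, so the levels, ratios and shares below are a description of the values that chose them and support nothing further. Counts came from 4 single-cell RNA-seq libraries made on the BD Rhapsody platform, each the only library of its group. Unilateral ureteral obstruction (UUO), a surgical model of kidney injury and fibrosis, was made by tying and cutting the left ureter. For sham operations it was handled without being tied.

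The intestinal pair held small intestinal cells of wild type mice 3 days after UUO (called UUO below) and of wild type mice after sham surgery (sham), sorted as group 3 ILCs. The kidney pair held cells sorted as ILCs from mice of the strain B6.Cg-Pdcd1tm1.1Shr/J, labelled as knockouts of the PD-1 gene, 3 days after UUO (called the KO-labelled kidney) and from wild type mice 14 days after UUO (the day 14 kidney). All mice were male and 8 to 10 weeks old. The sources used here do not say how many animals a library pools, and the labels' tissue protocol speaks of pulmonary artery, which neither tissue label names. In the kidney pair the genotype label and the day differ together, so they cannot be told apart. The counts of a further kidney library, from wild type mice at day 3, were not used here.

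Prostaglandins and leukotrienes are lipid mediators made from arachidonic acid, a fatty acid that phospholipases release from membranes. Cyclooxygenases turn it into the precursor from which prostaglandin synthases make prostaglandin E2, D2 and other prostanoids, and 5-lipoxygenase with its partner protein FLAP opens the leukotriene branch. Prostaglandin E2 is known to restrain ILC2s and to support IL-22 production by ILC3s, and cysteinyl leukotrienes are known to activate ILC2s.

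Ptgs2 (ENSMUSG00000032487, chr1:150100031-150108227, + strand, GRCm38) encodes the inducible cyclooxygenase COX-2, and Alox5 (ENSMUSG00000025701, chr6:116410077-116461178, - strand, GRCm38) encodes 5-lipoxygenase. Their promoters are shown because these genes open the prostanoid and the leukotriene branch and their ratios between the kidney libraries had opposite signs in ILC2-like cells. The sequences are the 250 bases before each RefSeq start in GRCm38.p6, at chr1:150099781-150100030 and chr6:116461179-116461428, written along the gene's own strand. Capitals mark GC boxes (GGGCGG) and C/EBP-like motifs (TTNNGNAA), searched on both strands.
Ptgs2: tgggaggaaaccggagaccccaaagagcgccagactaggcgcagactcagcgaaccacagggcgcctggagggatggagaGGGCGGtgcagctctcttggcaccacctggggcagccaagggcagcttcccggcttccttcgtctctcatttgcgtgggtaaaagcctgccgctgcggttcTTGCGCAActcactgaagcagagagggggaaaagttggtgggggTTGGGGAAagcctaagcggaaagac
Alox5: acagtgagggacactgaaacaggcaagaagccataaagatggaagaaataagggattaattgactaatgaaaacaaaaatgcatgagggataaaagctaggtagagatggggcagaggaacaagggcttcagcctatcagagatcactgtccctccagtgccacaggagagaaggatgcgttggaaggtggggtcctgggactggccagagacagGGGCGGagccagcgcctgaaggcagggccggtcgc
The Ptgs2 window held a GC box 170 bases before the start and C/EBP-like matches 69 and 25 bases before it, which did not overlap the GC box. The Alox5 window held 1 GC box, 35 bases before the start, and no C/EBP-like match. Of 32851 promoter windows of this length, 32.7% held GGGCGG and 36.8% held TTNNGNAA on either strand. The letters TGACG (17.8% of windows), CACGTG (6.02%) and AGATAA (9.99%) were not found in these windows or in those of Ptger2, Ptger4 and Hpgds, and CCAAT (33.8%) was found in those of Ptger2 and Ptger4. Bases outside the windows, those after each start among them, were not searched. A missing match therefore does not say that the gene lacks such a site.

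After filtering, 4946 cells of UUO, 3501 of sham, 6960 of the KO-labelled kidney and 5212 of the day 14 kidney were kept, with a median of 1824 to 2177 UMIs (counted molecules) per cell. Clusters were rebuilt and named from marker lists. ILC3-like cells (4176 in UUO, 3133 in sham) held Il23r, the IL-23 receptor gene, at 373 CPM in UUO and 369.6 CPM in sham, and fell into cluster 1 (led by Ret, Arg1 and Il22), cluster 2 (Cd83 and Cx3cl1) and cluster 5 (Ccr9 and Csf2). Clusters 1 and 2 merged at a lower clustering resolution, so the boundary between them is soft. The KO-labelled kidney and the day 14 kidney held 851 and 534 ILC2-like cells, 1401 and 965 ILC1/NK-like cells and, although labelled as ILCs, 4451 and 3499 T cell-like cells. The intestinal libraries shared 158 cell barcodes, carried by 17 ILC3-like cells in each, and without these cells the Ptgs2 ratio in ILC3-like cells was -0.82 on the log2 scale. Pdcd1 was counted at 189.6 CPM (183 to 196) in the KO-labelled kidney and 127 CPM (119.9 to 134) in the day 14 kidney. The tag can lie outside a deleted part of the gene, so this does not check the label.

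A level is the sum of a gene's UMIs over the cells of a class in 1 library, as counts per 1000000 UMIs of that class (CPM), with an exact Poisson 95% interval in brackets. Log2 ratios of such levels have exact conditional binomial 95% intervals, and shares of cells have exact binomial ones. Thinned shares were taken after each cell had been reduced to 1000 UMIs. With 1 library per group there is no test, and all intervals cover counting error only. Intervals of levels and ratios take UMIs as independent. Where a few cells hold most UMIs, as for Ptgs2, they are too narrow to cover the spread between cells. Levels are compared between cells and libraries for 1 gene, not between genes.

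Ptgs2 was lower in UUO than in sham in all ILC3-like clusters, by different amounts. Cluster 2 held 45.1 CPM (38.3 to 52.7) in UUO and 144 CPM (129 to 159) in sham, a log2 ratio of -1.67 (-1.95 to -1.40). Cluster 5, where the level was highest in both libraries, held 263 CPM (244 to 282) in UUO and 435 CPM (406 to 464) in sham, a log2 ratio of -0.73 (-0.87 to -0.58). The genes that led cluster 5 differed between its libraries too: Ccr9 stood at 485 CPM in UUO and 289 CPM in sham, and Csf2 at 237 CPM in UUO and 406 CPM in sham, and their part in the Ptgs2 ratio was not tested. Cluster 1 differed least, with 82.4 CPM (72.7 to 93.1) in UUO and 106 CPM (92.9 to 120.1) in sham, a log2 ratio of -0.36 (-0.62 to -0.10). The ratio was -0.05 in the cluster that best matched cluster 1 when cells were clustered without the eicosanoid genes. That match was loose, with an overlap of 0.43 (shared cells as a fraction of the cells in either). Without the 5 highest cells of each library the cluster 1 ratio was -0.79, so its size changed with the cells counted. Clusters 1 and 2 changed places: cluster 2 lay below cluster 1 in UUO and above it in sham. Over all ILC3-like cells the log2 ratio was -0.82 (-0.94 to -0.71), from 1158 UMIs in UUO and 1467 in sham.

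**Figure D1:**
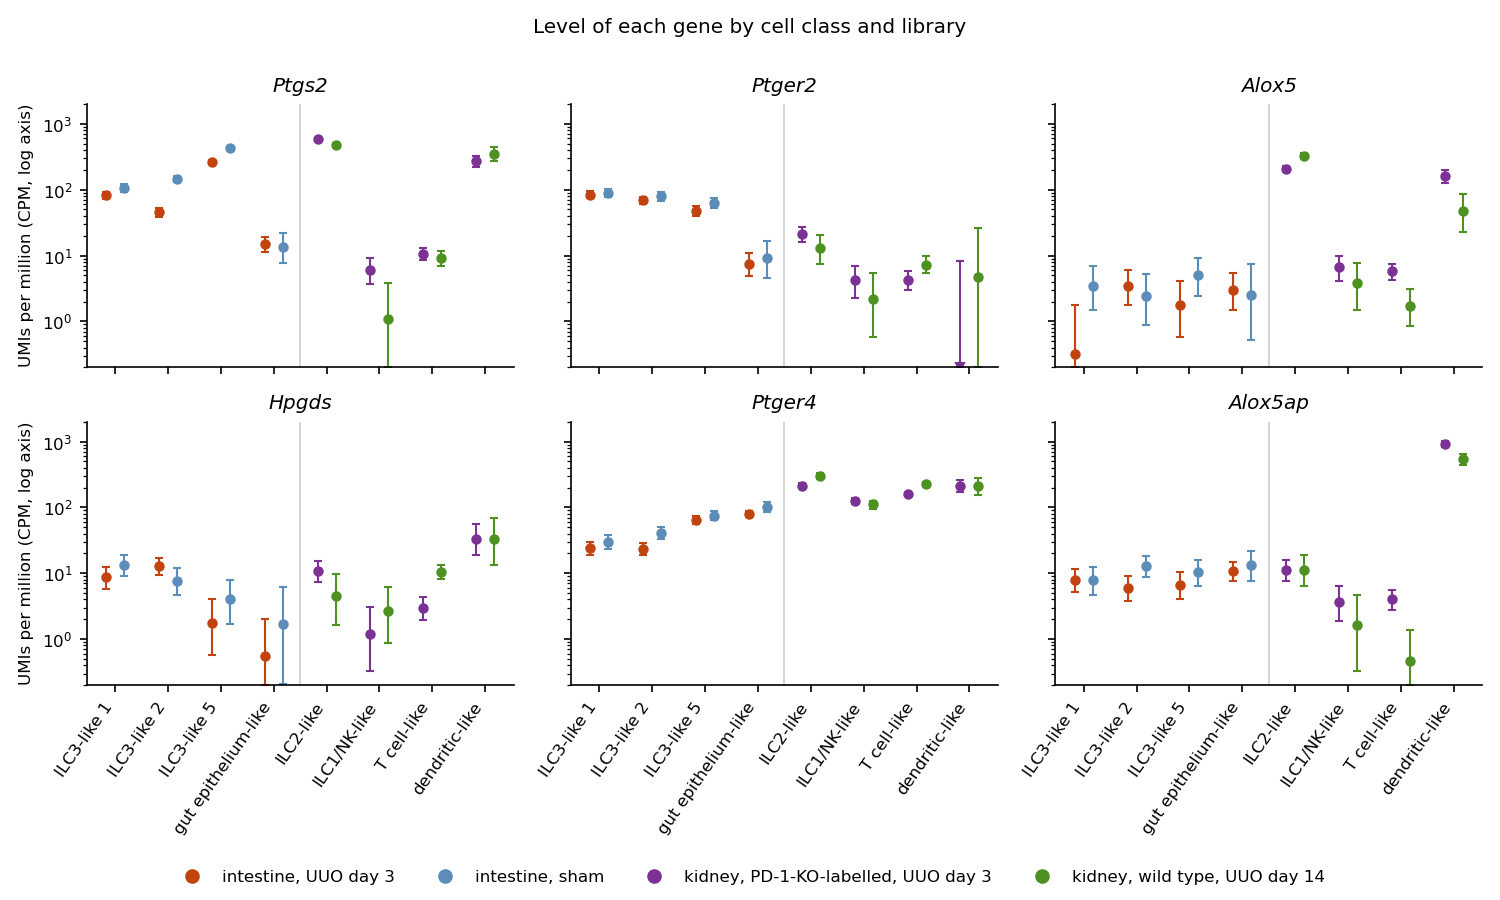
Level of each gene (CPM, log axis) by cell class, 1 point per library with its exact Poisson 95% interval; a vertical line separates intestinal classes (UUO, sham) from kidney classes (KO-labelled, day 14), and a triangle at the lower edge marks 0 UMIs. Ptger2 is highest in the ILC3-like clusters, from 47.8 to 88.8 CPM, while Alox5 reaches 208 and 329.5 CPM in ILC2-like cells and stays below 10 CPM in the ILC3-like and ILC1/NK-like classes.

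Fewer ILC3-like cells held a Ptgs2 UMI in UUO. The share was 6.32% (5.603 to 7.10) in UUO and 11.3% (10.2 to 12.5) in sham, at median depths of 2173.5 and 2045 UMIs, and after thinning 4.21% (3.60 to 4.89) in UUO and 7.74% (6.81 to 8.75) in sham. Intestinal epithelium-like cells, taken as the background, gave thinned shares of 1.81% (0.666 to 3.89) in UUO and 1.68% (0.204 to 5.94) in sham, at median depths of 3355.5 and 1593 UMIs before thinning. Of these cells 91 of 424 in UUO and 90 of 206 in sham carried barcodes that the intestinal libraries share. The ILC3-like interval lay above that of the background in sham and overlapped it in UUO. In cluster 2 the thinned share was 2.11% (1.41 to 3.01) in UUO and 5.77% (4.44 to 7.35) in sham, so in UUO this share was close to the background. The level of cluster 2 in UUO was not, at 45.1 CPM (38.3 to 52.7) beside 14.9 CPM (11.2 to 19.4) in epithelium-like cells of UUO. In UUO, 8 cluster 2 cells with 6 or more UMIs held 50.3% of that cluster's Ptgs2 UMIs. Among thinned cluster 5 cells the share was 9.24% (7.49 to 11.2) in UUO and 15.9% (13.4 to 18.8) in sham, and these intervals did not overlap.

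A small number of cells carried most of the Ptgs2 transcript. ILC3-like cells with 6 or more UMIs numbered 62 in UUO and 80 in sham, and held 70.3% of the class's Ptgs2 UMIs in UUO and 63.7% in sham. Of these cells 43 in UUO and 48 in sham belonged to cluster 5. The highest single cell held 83 UMIs in UUO and 32 in sham. The tail of high cells was thus present in both intestines, and without the 5 highest cells of each library the log2 ratio was -0.98.

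**Figure D2:**
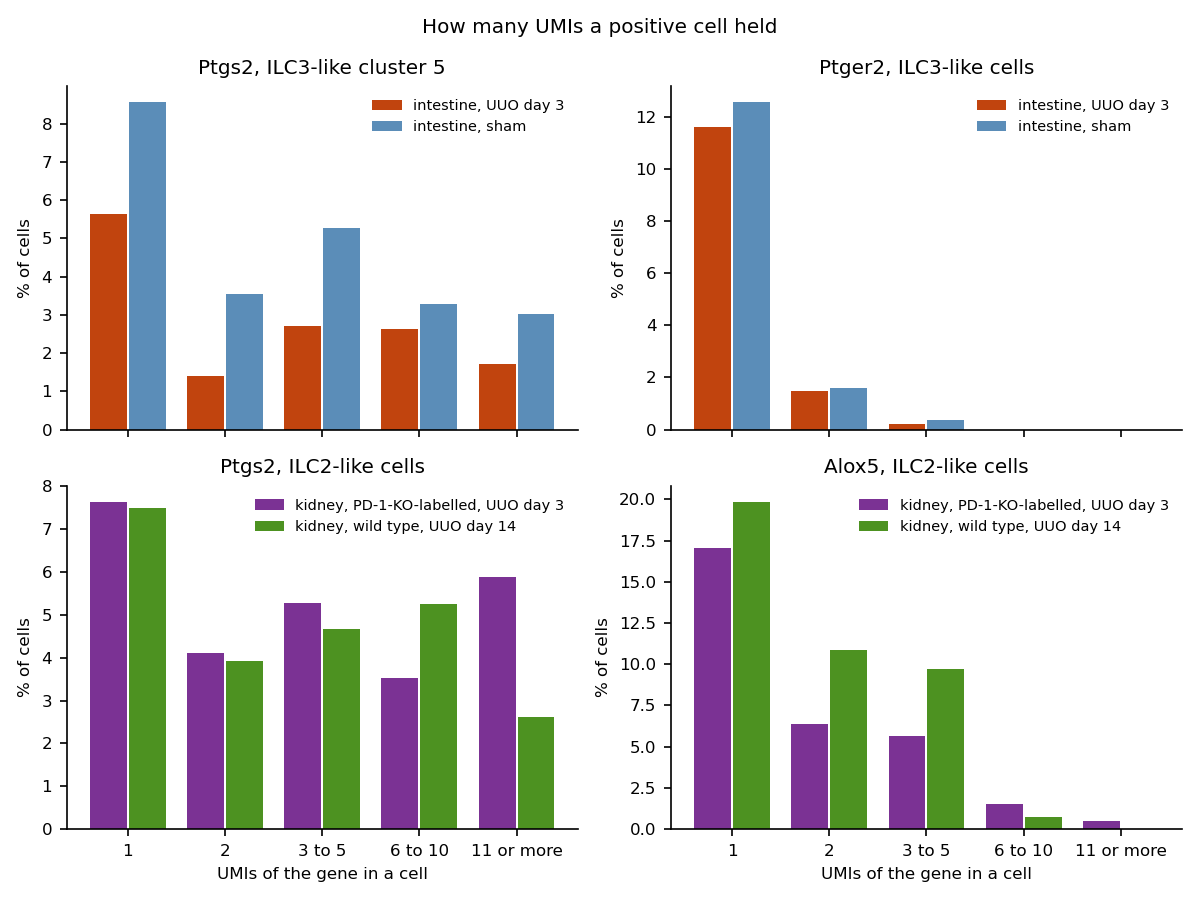
Share of cells of a class (%, y axis) that held 1, 2, 3 to 5, 6 to 10 or 11 or more UMIs of a gene (x axis), for Ptgs2 in cluster 5, Ptger2 in ILC3-like cells, and Ptgs2 and Alox5 in kidney ILC2-like cells. Ptgs2 has a tail of cells with 11 or more UMIs in both tissues, while no ILC3-like cell held more than 4 UMIs of Ptger2.

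Epithelial transcripts moved with the same comparison. The intestinal epithelium markers, counted in ILC3-like cells for 16 of 16 in UUO and 16 of 16 in sham, summed to 1783 CPM in UUO and 1128 CPM in sham, and 69.9% of ILC3-like cells in UUO and 39.7% in sham held 3 or more of their UMIs. Among the cells with fewer, Ptgs2 stood at 76.0 CPM (64.9 to 88.5) in UUO and 203 CPM (189 to 219) in sham, a log2 ratio of -1.42. In cluster 5 these cells held 150.3 CPM (113 to 196) in UUO and 522 CPM (474 to 574) in sham. In cluster 2 they held 37.1 CPM (24.2 to 54.3) in UUO and 111 CPM (94.2 to 130.4) in sham, a log2 ratio of -1.59. Cluster 1 cells with fewer held 76.5 CPM (61.2 to 94.5) in UUO and 107 CPM (91.0 to 125) in sham. The differences were larger than before this filter in the whole class and in cluster 5, slightly larger in cluster 1, and not larger in cluster 2. The filter left out 82.6% of cluster 5 cells in UUO and 52.5% in sham, which changed the mix of clusters in the whole class. That change was not tested for its part in the ratio of -1.42. The filtered cluster 5 level rests on 54 UMIs in UUO. Kept ILC3-like cells were shallower, at medians of 1745 UMIs in UUO and 1887 in sham. Monocyte and macrophage markers, counted for 12 of 12 in UUO and 11 of 12 in sham, summed to 207 CPM in UUO and 226 CPM in sham, and macrophage-like cells held no Ptgs2 UMI, 0 of 140 in UUO and 0 of 49 in sham, where 0 UMIs allow, at 3 counts per library, up to 34.6 CPM in UUO and 105 CPM in sham. Dendritic cell-like cells did hold Ptgs2, at 537 CPM (420 to 678) in 31 cells of UUO. The 12 such cells of sham were too few to be measured. Dendritic cell markers in ILC3-like cells, counted for 8 of 10 in UUO and 9 of 10 in sham, summed to 169 CPM in UUO and 202 CPM in sham. The part of dendritic cell transcripts in the result was not tested.

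In the kidney, ILC2-like cells had the highest Ptgs2 of the lymphocyte classes. They held 584 CPM (556 to 613) in the KO-labelled kidney and 474 CPM (437 to 512) in the day 14 kidney, a log2 ratio of 0.30 (0.17 to 0.44). The share of these cells with a UMI was 26.4% (23.5 to 29.5) in the KO-labelled kidney and 24.0% (20.4 to 27.8) in the day 14 kidney, and after thinning 17.6% (15.1 to 20.4) in the KO-labelled kidney and 18.7% (15.4 to 22.3) in the day 14 kidney. The intervals of the shares overlapped, and the log2 ratio of the levels was 0.02 in thinned cells. ILC2-like cells were deeper in the KO-labelled kidney, with a median of 2957 UMIs, against 2348.5 in the day 14 kidney. The tail was heavier there, with 50 of 851 cells at 11 or more UMIs, against 14 of 534 in the day 14 kidney.

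T cell transcripts differed between the same ILC2-like cells. The T cell markers, counted for 12 of 12 in the KO-labelled kidney and 12 of 12 in the day 14 kidney, summed to 1434 CPM in the KO-labelled kidney and 979 CPM in the day 14 kidney. A Cd3d, Cd3e or Cd3g UMI was found in 43.0% of ILC2-like cells in the KO-labelled kidney and 18.2% in the day 14 kidney. In the cells without one, Ptgs2 stood at 559 CPM (519.98 to 599.8) in the KO-labelled kidney and 523 CPM (479.98 to 568) in the day 14 kidney, a log2 ratio of 0.10, so the difference was smaller there. Summed ILC1/NK markers were 241 CPM in the KO-labelled kidney and 104 CPM in the day 14 kidney, and kidney epithelium markers, counted for 9 of 10 in the KO-labelled kidney and 4 of 10 in the day 14 kidney, were 70.3 CPM in the KO-labelled kidney and 9.05 CPM in the day 14 kidney; their part was not tested.

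The other kidney lymphocytes held little Ptgs2. ILC1/NK-like cells had 20 UMIs in the KO-labelled kidney, or 6.01 CPM (3.67 to 9.27), and 2 UMIs in the day 14 kidney, or 1.08 CPM (0.130 to 3.88). T cell-like cluster 3 (Blk, Il17a) was the highest T cell cluster, with 30.5 CPM (21.5 to 42.0) in the KO-labelled kidney and 17.6 CPM (13.1 to 23.1) in the day 14 kidney, a log2 ratio of 0.79 (0.14 to 1.43). Its 5 highest cells held 51.4% of 37 UMIs in the KO-labelled kidney and 54.9% of 51 UMIs in the day 14 kidney. The ratio ran from 0.44 to 1.48 over 8 alternatives. Ordered over the 27 cluster sums of at least 100 cells, Ptgs2 was highest in ILC2-like cells of the KO-labelled kidney, then in those of the day 14 kidney and in cluster 5 of sham, whose intervals overlapped, then in cluster 5 of UUO. All 6 ILC3-like sums lay above those of T cell-like and ILC1/NK-like clusters, although the interval of cluster 2 in UUO overlapped that of cluster 3 in the KO-labelled kidney. Kidney dendritic cell-like cells held 269 CPM (223 to 322) in the KO-labelled kidney and 352 CPM (276 to 442) in the day 14 kidney. The patterns over the 27 sums most like that of Ptgs2, by Pearson correlation of log2(CPM + 1), were those of Stab2 (0.94), Csf2 (0.91) and 1700113H08Rik (0.90). These sums share libraries, so the correlations are descriptions.

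Hpgds (ENSMUSG00000029919, chr6:65117293-65144908, - strand, GRCm38) encodes the hematopoietic prostaglandin D2 synthase, which acts on the cyclooxygenase product. It was sparse throughout. ILC3-like cells held 77 UMIs in UUO, or 8.16 CPM (6.44 to 10.2), and 58 UMIs in sham, or 8.59 CPM (6.52 to 11.1), a log2 ratio of -0.07 (-0.58 to 0.44). Cluster 1 held 8.62 CPM (5.68 to 12.5) in UUO and 13.6 CPM (9.21 to 19.2) in sham. Cluster 2 held 12.9 CPM (9.42 to 17.3) in UUO and 7.71 CPM (4.64 to 12.0) in sham. Both pairs of intervals overlapped, cluster 5 held 5 UMIs in UUO and 8 in sham, and no difference between the intestines was detectable at this depth.

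Kidney ILC2-like cells held 30 UMIs in the KO-labelled kidney, or 10.9 CPM (7.37 to 15.6), and 6 UMIs in the day 14 kidney, or 4.52 CPM (1.66 to 9.85), a log2 ratio of 1.27 (-0.02 to 2.83). That interval includes 0. T cell-like clusters 0 and 7 had the opposite order. Cluster 0 (Cd8a, Cd8b1) held 2.41 CPM (1.32 to 4.05) in the KO-labelled kidney and 10.6 CPM (5.08 to 19.5) in the day 14 kidney, a log2 ratio of -2.13 (-3.41 to -0.80). Cluster 7 (Cd4) held 1 UMI in the KO-labelled kidney and 16 UMIs in the day 14 kidney, a log2 ratio of -3.83 (-9.22 to -1.15). In clusters 3 and 8 the log2 ratios were -0.50 (-1.85 to 0.68) and -0.40 (-2.67 to 1.67), with intervals that include 0. The prostaglandin D2 receptor genes were almost uncounted, with 1 UMI of Ptgdr2 and 4 of Ptgdr over all kept cells. Gm17147 overlaps Hpgds on the other strand, and since the sources used here do not say whether counting used the strand, the counts are uncertain. The nearest patterns were those of Wdr91 (0.74), Slc39a10 (0.74) and Tpp1 (0.74).

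Ptger2 (ENSMUSG00000037759, chr14:44988195-45003820, + strand, GRCm38) encodes EP2, a prostaglandin E2 receptor that raises cyclic AMP. Its 6 highest sums were the 3 ILC3-like clusters of both intestines. Cluster 1 held 83.4 CPM (73.6 to 94.1) in UUO and 88.8 CPM (77.0 to 102) in sham, and cluster 2 held 69.2 CPM (60.7 to 78.5) in UUO and 79.1 CPM (68.4 to 91.0) in sham. Cluster 5 was the lowest of the 3, with 47.8 CPM (40.0 to 56.5) in UUO and 63.9 CPM (53.3 to 75.9) in sham, a log2 ratio of -0.42 (-0.78 to -0.06). The intervals of all neighbours in the order of levels overlapped. Over all ILC3-like cells Ptger2 stood at 67.5 CPM (62.3 to 72.9) in UUO and 77.9 CPM (71.3 to 84.8) in sham, a log2 ratio of -0.21 (-0.38 to -0.04).

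Ptger2 was spread over many cells with few UMIs each. In UUO 485 ILC3-like cells held 1 UMI, 62 held 2 and 9 held more, and in sham 393 held 1, 50 held 2 and 11 held more. The thinned share with a UMI was 6.51% (5.75 to 7.33) in UUO and 7.30% (6.400 to 8.29) in sham, and among epithelium-like cells 0.904% in UUO and 0.840% in sham. Kidney ILC2-like cells held 21.1 CPM (16.0 to 27.3) in the KO-labelled kidney and 12.8 CPM (7.47 to 20.5) in the day 14 kidney, a log2 ratio of 0.72 (-0.08 to 1.59). ILC1/NK-like cells held 4.20 CPM in the KO-labelled kidney and 2.15 CPM in the day 14 kidney. T cell-like cluster 3 had 0 UMIs in 450 cells of the KO-labelled kidney, which allows, at 3 counts in that library, up to 2.47 CPM, and 25 UMIs, or 8.63 CPM (5.58 to 12.7), in the day 14 kidney. Gm49364 and Gm17173 overlap Ptger2 on the other strand, so its counts are uncertain too. The nearest patterns were those of Usp9x (0.90), Dnajc6 (0.88) and Fam110a (0.87).

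Ptger4 (ENSMUSG00000039942, chr15:5206661-5244187, - strand, GRCm38) encodes EP4, the other prostaglandin E2 receptor that raises cyclic AMP, and was low where Ptger2 was high. Its 4 lowest sums were clusters 1 and 2 of the ILC3-like cells. Cluster 1 held 24.0 CPM (18.8 to 30.03) in UUO and 29.7 CPM (23.1 to 37.7) in sham. Cluster 2 held 23.5 CPM (18.7 to 29.2) in UUO and 41.0 CPM (33.4 to 49.8) in sham, a log2 ratio of -0.80 (-1.24 to -0.37). Without cells of 3 or more epithelial UMIs that ratio was -0.34. Cluster 5 held more, with 64.7 CPM (55.7 to 74.8) in UUO and 74.8 CPM (63.3 to 87.8) in sham, a log2 ratio of -0.21 (-0.53 to 0.11). Cluster 5 thus had the highest Ptger4 and the lowest Ptger2 of the 3 clusters in both libraries. Over all ILC3-like cells Ptger4 stood at 36.0 CPM (32.3 to 40.1) in UUO and 47.2 CPM (42.2 to 52.7) in sham, a log2 ratio of -0.39 (-0.62 to -0.17).

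**Figure D3:**
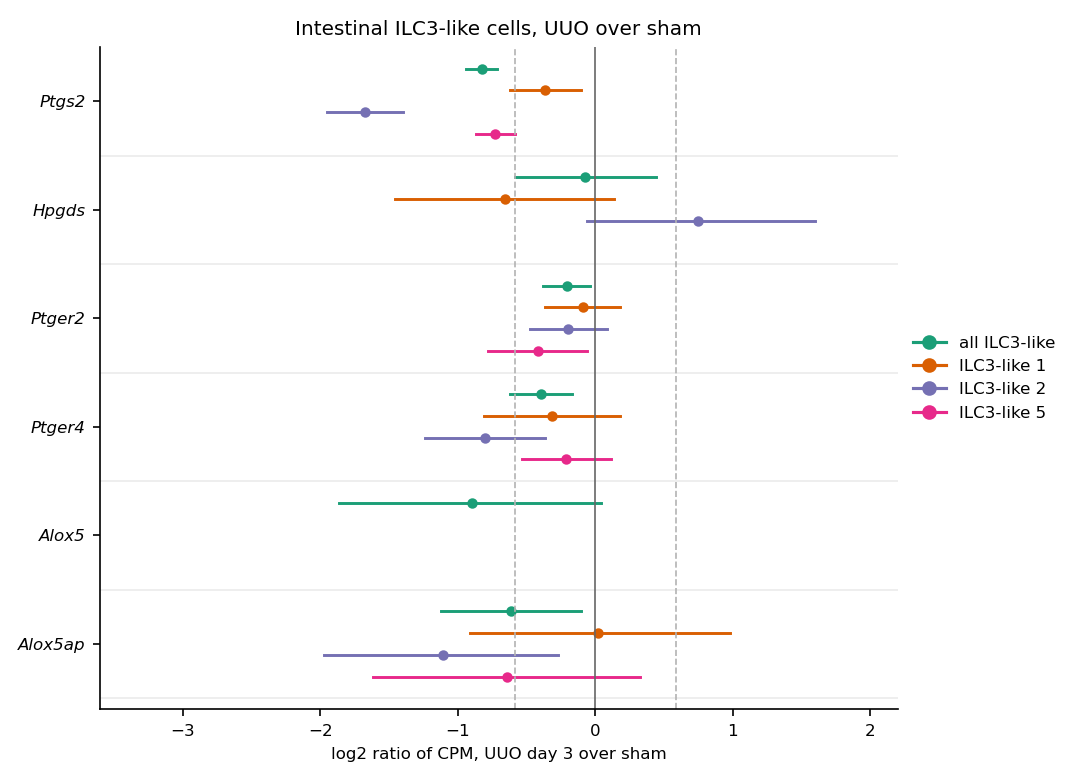
Log2 ratio of CPM, UUO over sham, for each gene in all ILC3-like cells and in clusters 1, 2 and 5, with exact conditional binomial 95% intervals; pairs with fewer than 20 UMIs in both libraries together, or 0 in either, are not drawn, and dashed lines mark 1.5-fold. Ptgs2 is below 0 in all 4 classes, from -1.67 in cluster 2 to -0.36 in cluster 1.

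Ptger4 was counted in every lymphocyte class of the kidney. ILC2-like cells held 214 CPM (197 to 232) in the KO-labelled kidney and 299 CPM (271 to 330.3) in the day 14 kidney, a log2 ratio of -0.49 (-0.67 to -0.30). The share of these cells with a UMI was 39.4% in the KO-labelled kidney and 41.2% in the day 14 kidney, and after thinning 18.5% (15.9 to 21.3) in the KO-labelled kidney and 24.6% (20.9 to 28.5) in the day 14 kidney. The log2 ratio was also below 0 in the 4 T cell-like clusters that held at least 100 cells in both kidneys. It was -0.73 (-0.94 to -0.52) in cluster 0, -0.67 (-0.92 to -0.43) in cluster 3, -0.25 (-0.47 to -0.04) in cluster 7 and -1.11 (-1.67 to -0.58) in cluster 8 (Klra1). In ILC1/NK-like cells it was above 0 with an interval that includes 0, at 125 CPM (113 to 137) in the KO-labelled kidney and 111 CPM (96.1 to 127) in the day 14 kidney, a log2 ratio of 0.17 (-0.07 to 0.42). A smaller T cell-like cluster, cluster 11 (Foxp3), of 40 cells in the KO-labelled kidney and 256 in the day 14 kidney, had the opposite order, with 316 CPM (202 to 469.8) in the KO-labelled kidney and 189 CPM (149.6 to 236) in the day 14 kidney. Among the 4 larger clusters cluster 8 was lowest, with 58.6 CPM in the KO-labelled kidney and 127 CPM in the day 14 kidney, and cluster 7 held 248 CPM in the KO-labelled kidney and 296 CPM in the day 14 kidney. Of genes with at least 100 UMIs, 2.73% had a lower ratio than Ptger4 in cluster 0, 5.55% in cluster 3, 25.9% in cluster 7 and 1.235% in cluster 8. Genes that label these clusters differed between the kidneys too. Klra1 in cluster 8 stood at 141 CPM in the KO-labelled kidney and 433 CPM in the day 14 kidney. In cluster 3 Il17a stood at 90.7 and 217 CPM and Blk at 488 and 520 CPM. Their part was not tested. Ttc33 and Gm15937 overlap Ptger4 on the other strand, so part of its counts may belong to them. The nearest patterns were those of Mrpl33 (0.90), Dynlrb1 (0.86) and Cops9 (0.86).

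**Figure D4:**
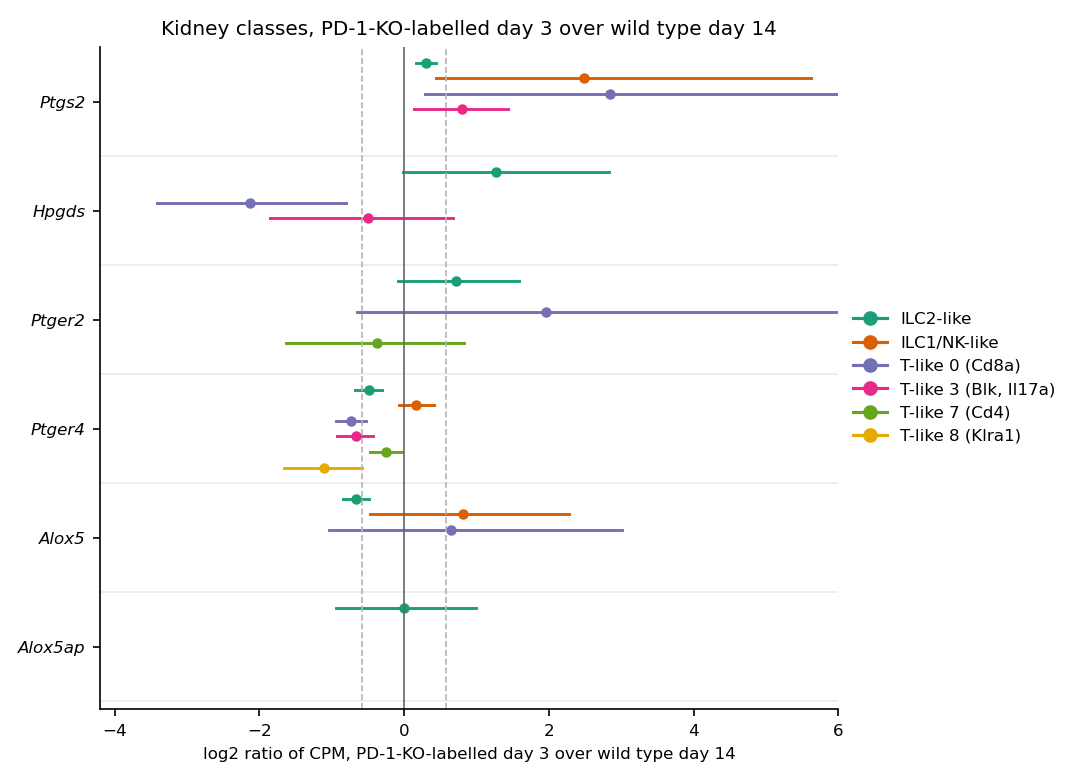
Log2 ratio of CPM, KO-labelled kidney over day 14 kidney, for each gene in ILC2-like, ILC1/NK-like and the 4 T cell-like clusters with at least 100 cells in both kidneys, with exact conditional binomial 95% intervals cut at the plot edge; pairs with fewer than 20 UMIs in all, or 0 in either library, are not drawn, and dashed lines mark 1.5-fold. Ptger4 is below 0 in ILC2-like cells and the 4 T cell-like clusters drawn, and Alox5 in ILC2-like cells lies at -0.66.

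Alox5, the 5-lipoxygenase gene, was high in ILC2-like cells and was itself among the genes that led their cluster. It stood at 208 CPM (191 to 226) in the KO-labelled kidney and 329.5 CPM (299 to 362) in the day 14 kidney, a log2 ratio of -0.66 (-0.85 to -0.48). The thinned share of ILC2-like cells with a UMI was 14.6% (12.2 to 17.2) in the KO-labelled kidney and 23.2% (19.7 to 27.1) in the day 14 kidney, and these intervals did not overlap. ILC1/NK-like cells, taken as the background, gave 0.810% in the KO-labelled kidney and 0.549% in the day 14 kidney, at median depths of 2235 and 1833 UMIs before thinning. The log2 ratio in ILC2-like cells ran from -0.82 to -0.65 over 9 alternatives, thinned cells and cells without a Cd3 UMI among them. Marker genes of these cells differed between the kidneys too. In the KO-labelled and the day 14 kidney Gata3 stood at 1288 and 1703 CPM and Il1rl1 at 1678 and 1901 CPM. Calca stood at 2619 and 3324 CPM and Il5, in the other direction, at 202 and 196 CPM. Their part in the Alox5 and Ptger4 ratios was not tested.

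Other lymphocytes held little Alox5. ILC3-like cells held 18 UMIs in UUO, or 1.91 CPM (1.13 to 3.01), and 24 UMIs in sham, or 3.55 CPM (2.28 to 5.29), a log2 ratio of -0.90 (-1.87 to 0.04), and no cell held more than 1 UMI. Epithelium-like cells held 3.03 CPM in UUO and 2.53 CPM in sham, close to the ILC3-like values. T cell-like cells held 5.77 CPM (4.31 to 7.56) in the KO-labelled kidney and 1.71 CPM (0.853 to 3.06) in the day 14 kidney. Myeloid classes held more, with 160.1 CPM (125 to 202) in the KO-labelled kidney and 47.6 CPM (22.8 to 87.5) in the day 14 kidney in dendritic cell-like cells and 242 CPM in UUO and 280.1 CPM in sham in macrophage-like cells. Of the macrophage-like cells, 48 of 140 in UUO and 49 of 49 in sham carried barcodes shared between the intestinal libraries. The nearest patterns were those of Krt80 (0.91), Il13 (0.85) and Plcb1 (0.82).

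Alox5ap (ENSMUSG00000060063, chr5:149264767-149288153, + strand, GRCm38) encodes FLAP, which presents arachidonic acid to 5-lipoxygenase, and was high in myeloid cells and low in ILC3-like and kidney ILC2-like cells. Dendritic cell-like cells of the kidney, whose cluster it helped to lead, held 914 CPM (828 to 1007) in the KO-labelled kidney and 537 CPM (443 to 646) in the day 14 kidney. ILC2-like cells held 31 UMIs in the KO-labelled kidney, or 11.3 CPM (7.67 to 16.0), and 15 UMIs in the day 14 kidney, or 11.3 CPM (6.33 to 18.7), a log2 ratio of -0.00 (-0.94 to 0.99). ILC1/NK-like cells held 3.60 CPM (1.86 to 6.29) in the KO-labelled kidney and 1.61 CPM (0.333 to 4.71) in the day 14 kidney, and T cell-like cells held 3.99 CPM (2.80 to 5.53) in the KO-labelled kidney and 0.466 CPM (0.0962 to 1.36) in the day 14 kidney. The ILC2-like intervals lay above these in both kidneys. B cell-like cells gave 17.5 CPM in the KO-labelled kidney and 17.0 CPM in the day 14 kidney, on 4 UMIs in each library, too few to order against ILC2-like cells. After thinning, Alox5ap was seen in ILC2-like cells in 0.840% (0.0213 to 4.59) of cells with Alox5 and 1.72% (0.891 to 2.98) of cells without it in the KO-labelled kidney, and in 0.820% (0.0208 to 4.48) of cells with Alox5 and 1.49% (0.548 to 3.21) of cells without it in the day 14 kidney. These intervals overlapped. ILC3-like cells held 6.88 CPM (5.31 to 8.78) in UUO and 10.5 CPM (8.21 to 13.3) in sham, a log2 ratio of -0.61 (-1.12 to -0.10), beside 10.7 CPM in UUO and 13.5 CPM in sham in epithelium-like cells. Without cells of 3 or more epithelial UMIs that ratio was -1.22, and in cluster 5 it changed sign, on 5 UMIs in each library. The genes n-R5s180 and Gm19719 overlap Alox5ap on the other strand, so its counts are uncertain. The nearest patterns were those of Csf2ra (0.88), Renbp (0.87) and Grn (0.87).

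Counts of the 6 genes past 1.5-fold stand beside the share of all genes that reached 20 UMIs over the 2 libraries compared. In ILC3-like cells 0 of 6 were higher in UUO (6.88% of all genes) and 3 were lower, Ptgs2, Alox5 and Alox5ap (4.12%). The median log2 ratio was -0.50 over the 6 genes and 0.00 over all genes. In cluster 1, 0 of 5 measured genes were higher (8.04%) and 1 was lower, Hpgds (4.77%). In cluster 2, 1 of 5 was higher, Hpgds (7.59%), and 3 were lower, Ptgs2, Ptger4 and Alox5ap (5.14%). In cluster 5, 0 of 4 were higher (7.86%) and 2 were lower, Ptgs2 and Alox5ap (5.41%). Since the genes were chosen with these ratios known, nothing is read from the counts.

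In kidney ILC2-like cells 2 of 6 genes were past 1.5-fold higher in the KO-labelled kidney, Ptger2 and Hpgds (12.5% of all genes), and 1 was lower, Alox5 (6.98%). In ILC1/NK-like cells 2 of 3 measured genes were higher, Ptgs2 and Alox5 (7.55%), and 0 were lower (8.24%). In T cell-like cluster 0, 4 of 6 were higher (12.8%), on 0 to 3 UMIs each in the day 14 kidney, and 2 were lower, Ptger4 and Hpgds (9.84%). In cluster 3, 1 of 4 was higher, Ptgs2 (7.86%), and 2 were lower, Ptger2 and Ptger4 (12.8%). In cluster 7, 0 of 2 were higher (9.55%) or lower (11.9%), and in cluster 8 the 1 measured gene, Ptger4, was lower (14.4%; 8.13% of all genes were higher). With at least 100 UMIs, the shares of all genes higher and lower were 3.29% and 1.19% in ILC3-like, 5.88% and 2.93% in ILC2-like and 3.77% and 4.04% in ILC1/NK-like cells.

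Cells with one of these transcripts were compared with cells without it after thinning. Alox5 was seen in ILC2-like cells in 13.9% (8.69 to 20.6) of cells with Ptgs2 and 14.7% (12.1 to 17.6) of cells without it in the KO-labelled kidney. It was seen in 27.6% (19.0 to 37.5) of cells with Ptgs2 and 22.2% (18.4 to 26.5) of cells without it in the day 14 kidney. For Ptger4 the shares were 14.6% (9.36 to 21.2) of cells with Ptger4 and 14.6% (12.0 to 17.5) of cells without it in the KO-labelled kidney, and 27.1% (19.7 to 35.7) of cells with Ptger4 and 22.0% (18.0 to 26.4) of cells without it in the day 14 kidney. In ILC3-like cells Ptger2 was seen in 5.52% (2.56 to 10.2) of cells with Ptgs2 and 6.55% (5.78 to 7.40) of cells without it in UUO, and in 4.29% (2.08 to 7.75) of cells with Ptgs2 and 7.56% (6.60 to 8.60) of cells without it in sham. The intervals of each pair overlapped.

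Among other genes of prostanoid synthesis, Ptges, the inducible prostaglandin E synthase, was low in the cluster where Ptgs2 was high. It held 99.3 CPM in UUO and 91.3 CPM in sham in cluster 2, 85.0 CPM in UUO and 90.1 CPM in sham in cluster 1 and 19.1 CPM in UUO and 10.97 CPM in sham in cluster 5. In cluster 5 its log2 ratio was 0.80 (0.06 to 1.59), opposite in sign to that of Ptgs2. Kidney ILC2-like cells held 1 Ptges UMI in the KO-labelled kidney and 0 in the day 14 kidney, but held Ptges3, a cytosolic prostaglandin E synthase, at 147 CPM in the KO-labelled kidney and 137 CPM in the day 14 kidney. Of 12 prostanoid synthesis genes 9 were measured in ILC3-like cells, where 1 was past 1.5-fold higher (Prxl2b; 6.88% of all genes) and 1 lower (Ptgs2; 4.12%), with a median log2 ratio of 0.07. In ILC2-like cells 6 were measured, of which 2 were higher (Ptges2 and Hpgds; 12.5% of all genes) and 0 lower (6.98%). Of 9 arachidonate release genes, 6 were measured in ILC3-like and 3 in ILC2-like cells and none passed 1.5-fold, with medians of -0.09 and -0.01.

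Of 9 prostanoid receptors, Ptger2 and Ptger4 were the ones measured in ILC3-like cells. In ILC2-like cells Ptgir, the prostacyclin receptor, was measured too, at 108 CPM in the KO-labelled kidney and 146 CPM in the day 14 kidney, a log2 ratio of -0.43 (-0.70 to -0.16), while ILC3-like cells held 1 Ptgir UMI in UUO and 0 in sham. Cysltr1, a receptor for cysteinyl leukotrienes, stood at 70.2 CPM in UUO and 48.7 CPM in sham in ILC3-like cells, a log2 ratio of 0.53 (0.34 to 0.72), and was higher in UUO in each of the 3 clusters. Epithelium-like cells held 20 UMIs in UUO, or 5.50 CPM, and 4 UMIs in sham, or 3.38 CPM, a log2 ratio of 0.70 (-0.87 to 2.71). In kidney ILC2-like cells it stood at 175 CPM in the KO-labelled kidney and 179 CPM in the day 14 kidney. Ltb4r1, the high-affinity receptor for leukotriene B4, was found mainly in cluster 5 of the ILC3-like cells, with 37.5 CPM in UUO and 52.4 CPM in sham, while cluster 1 held 9 UMIs in UUO and 8 in sham. Of 5 leukotriene receptors, 3 were measured in each of the ILC3-like and ILC2-like classes and none passed 1.5-fold.

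Of 11 leukotriene synthesis genes, 10 were measured in ILC3-like cells, 4 were past 1.5-fold higher in UUO (Mgst2, Mgst3, Ggt1 and Dpep1; 6.88% of all genes) and 2 lower (Alox5 and Alox5ap; 4.12%), with a median of -0.05. The 4 higher genes had higher levels in epithelium-like cells than in ILC3-like cells. Ggt1, which trims leukotriene C4, stood at 19.2 CPM in UUO and 7.40 CPM in sham in ILC3-like cells and at 272 CPM in UUO and 113 CPM in sham in epithelium-like cells. Dpep1, which acts in the following step, stood at 26.2 CPM in UUO and 11.8 CPM in sham in ILC3-like cells and at 463 CPM in UUO and 323 CPM in sham in epithelium-like cells. The epithelial markers, which were also higher in UUO, were not tested for their part in these genes. In ILC2-like cells 6 were measured, of which 2 were lower (Alox5 and Mgst2; 6.98% of all genes) and 0 higher (12.5%). Of 6 genes of prostanoid transport and breakdown, all measured in ILC3-like cells, Slco2a1 and Hpgd were past 1.5-fold higher (6.88% of all genes), on 37 and 47 UMIs in UUO and 16 and 20 in sham, and both were also higher in UUO in epithelium-like cells. Of 6 other lipoxygenases, Aloxe3 was measured in ILC3-like cells and was lower (4.12% of all genes), with 14 UMIs in UUO and 18 in sham.

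A list of 12 genes was taken as induced by cyclic AMP, which EP2 and EP4 signals can raise, and all were measured. In the pooled ILC3-like, ILC2-like or ILC1/NK-like cells 0 of 12 passed 1.5-fold in either direction. The shares of all genes higher and lower there were 6.88% and 4.12%, 12.5% and 6.98%, and 7.55% and 8.24%. The median log2 ratio of the 12 genes was -0.08 in ILC3-like, -0.08 in ILC2-like and 0.13 in ILC1/NK-like cells. The medians over all genes were 0.00, 0.03 and -0.05. Single clusters held exceptions. Areg, the gene of the growth factor amphiregulin, was past 1.5-fold higher in UUO in cluster 1 (8.04% of all genes), with 34.5 CPM in UUO and 19.7 CPM in sham. Pde4d, a phosphodiesterase that breaks down cyclic AMP, was lower in UUO in cluster 5 (5.41%), with 5.66 CPM in UUO and 8.98 CPM in sham. In T cell-like cluster 3 the nuclear receptor gene Nr4a1 and the clock gene Per1 were higher in the KO-labelled kidney (7.86%), and in clusters 0 and 7 Areg was higher (12.8% and 9.55%) and Pde3b, another phosphodiesterase gene, was lower (9.84% and 11.9%). Whether cyclic AMP induces each listed gene in these cells was not tested.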

How the data were processed

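UMI counts per gene and cell of 4 BD Rhapsody libraries were used as deposited by the authors. CASAVA 1.8, the mm10 build, Seurat and UMI-tools are given in the submitters' processing notes. The day 14 kidney matrix took the gene list of the other libraries (correlation of summed levels with the KO-labelled kidney 0.992, and 0.209 with genes shifted by 1). Barcodes passed with 500 or more UMIs, 250 or more genes and 20% or less mitochondrial UMIs, which left 8304911 to 16227848 UMIs per library. Cells were clustered with scanpy 1.11.5 in Python 3.11.15 (2000 variable genes, 30 components, 15 neighbours, Leiden resolution 1), and a cluster was named where 3 or more listed markers were 2-fold up. Scrublet called under 0.5% of cells and so had not worked, and no doublets were removed. Intervals of ratios (scipy 1.17.1) were tested on simulated Poisson counts. Those counts lack the clumping of UMIs in a few cells, so the test says nothing about its effect. Members and lists were chosen with earlier results of these data known. Other genes were named where they had 100 UMIs and 20 CPM, and nearest patterns as the 3 highest correlations; genes of fewer UMIs were named after their values were seen. Alternatives left out cells, thinned them, or changed totals, clustering or count minimums.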

Additional observations from a re-analysis of the deposited data

How the results depend on the processing

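No paired analysis was possible because each group is 1 library, and no library could be left out. Of 373 alternative values of the members' log2 ratios, 352 lay within the interval reported. Genes of few UMIs have wide intervals, so the total does not describe each gene. For Ptgs2, 9 of 11 lay within it in ILC3-like cells. In clusters 1, 2 and 5 it was 6 of 10, 9 of 10 and 7 of 11. It was 6 of 9 in ILC2-like and 8 of 8 in ILC1/NK-like cells. T cell-like clusters 0 and 3 gave 7 of 7 and 7 of 8. All these alternatives for Ptgs2 kept the sign. Without cells of 3 or more epithelial UMIs, the ILC3-like ratios (UUO over sham) were -1.42 for Ptgs2 and -1.22 for Alox5ap, and Alox5ap in cluster 5 changed sign to 1.22 on 5 UMIs in each library. Without the 5 highest cells, Ptgs2 in ILC3-like cells was -0.98. In ILC2-like cells the Ptgs2 ratio was 0.0229 after thinning, 0.17 as a mean of per-cell CPM and 0.10 without cells holding a Cd3 UMI. Alox5 in T cell-like cluster 0 changed sign to -1.28 after thinning, on 7 UMIs in the KO-labelled kidney and 3 in the day 14 kidney. Clustered without the eicosanoid genes, Ptgs2 was -0.05 in the best match of cluster 1, whose overlap with it was 0.43. The cause of these moves was not tested. Genes past 1.5-fold at 100 UMIs numbered 301 higher and 109 lower in ILC3-like cells, against 812 and 486 at 20 UMIs, 60 and 18 at 500, and 110 and 17 at 2-fold. In ILC2-like cells they were 315 and 157, against 1142 and 639 at 20 UMIs, 33 and 31 at 500, 95 and 79 after thinning, and 79 and 19 at 2-fold. In ILC1/NK-like cells they were 238 and 255, against 715 and 781, 62 and 41, 157 and 169, and 46 and 34 in the same settings. Leaving out Scrublet's calls was not run, and clusters 1 and 2 gave no value of their own at resolution 0.5, where they merge. Leaving out the 5% of cells with the highest doublet score, or cells with a monocyte or macrophage marker UMI, was chosen after seeing the data. Depth limits Hpgds, Alox5ap and, outside ILC2-like and myeloid cells, Alox5, whose sums rest on few UMIs.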

Other observations

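A few intestinal cells fell into the ILC2-like cluster, 34 in UUO and 14 in sham, although the sort was for group 3 ILCs. They held Ptgs2 at 1000 CPM (839.6 to 1182) in UUO and 585 CPM (358 to 904) in sham, and 5 cells carried 82.5% of the UMIs in UUO. Alox5 stood at 124 CPM (72.3 to 199) in UUO and 58.5 CPM (7.09 to 212) in sham, and Hpgds at 65.7 CPM (30.04 to 125) in UUO and 58.5 CPM (7.09 to 212) in sham. The intervals of UUO and sham overlapped for each of these genes. Alox5ap stood at 58.4 CPM (25.2 to 115) in UUO, on 8 UMIs of which 1 cell held 7, and had 0 UMIs in sham.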
